A study of Mus musculus with 38 samples.

Results

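The 8 Krüppel-like factors Klf2, Klf3, Klf4, Klf6, Klf9, Klf10, Klf13 and Klf15 were followed in cardiomyocytes, endothelial cells (ECs) and fibroblasts of the mouse heart. They were chosen by gene symbol, and each matched 1 of the 35682 Ensembl gene identifiers in the count matrix. Sham mice received vehicle (DMSO in saline) for 6 weeks and then an open-chest operation. Control-AMI mice received the same vehicle for 6 weeks, followed by ligation of the left anterior descending artery for 30 minutes and reperfusion for 2 hours, a model of acute myocardial infarction. EMPA–Pre-AMI mice received the SGLT2 inhibitor empagliflozin at 10 mg/kg per day for 6 weeks and then the same ischemia and reperfusion. All groups were C57BL/6 males aged 8 to 12 weeks with no engineered allele, and each library pooled 2 hearts. Ischemia was present in both infarcted arms, so Control-AMI against Sham addressed the infarction, and the pair of infarcted groups addressed the pretreatment. Libraries were made with a 3′ end method, QuantSeq, from low-speed pelleted cardiomyocytes, from sorted CD45- CD31+ ECs and from sorted CD45- CD31- CD90+ fibroblasts.

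Krüppel-like factors bind GC-rich and CACCC elements through 3 zinc fingers at the end of the protein, and differ in the domains in front of them that recruit coactivators or corepressors. In endothelium, laminar flow induces Klf2 and Klf4 through the MEK5-ERK5-MEF2 pathway, and the proteins keep vessels anti-thrombotic and anti-inflammatory. Klf9 and Klf15 are known glucocorticoid-induced genes, Klf15 also follows the clock and controls fuel use in cardiomyocytes, and Klf6 and Klf10 respond early to injury and TGF-beta.

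There were 13 cardiomyocyte, 13 EC and 12 fibroblast libraries. Sham had 4 libraries in each population, Control-AMI had 5, 4 and 4, and EMPA–Pre-AMI had 4, 5 and 4. Total counts ranged from 2031716 to 4509284 in cardiomyocytes, from 1352514 to 2195308 in ECs and from 1946056 to 2821373 in fibroblasts. A count of 0 allowed up to 3 counts, which came to 1.64 to 3.51 CPM in cardiomyocytes, 0.873 to 1.3 CPM in ECs and 0.692 to 1.08 CPM in fibroblasts (a gene's counts scaled to a common library total), and this covers counting error only. The defining markers were present. Summed over 9 genes each, cardiomyocyte markers reached 44457 to 96567 CPM in cardiomyocytes, endothelial markers 4706 to 9848 CPM in ECs and fibroblast markers 20213 to 34573 CPM in fibroblasts. Markers of the other populations were present too: Sham cardiomyocyte libraries held 1500 to 2083 CPM of endothelial and 3323 to 5037 CPM of fibroblast markers, with none of the 9 genes of either list at 0. The cells were separated from the same digested hearts, so libraries of different populations share hearts, but which ones is not given in the sources used here. The labels number the libraries along 4 sample-sheet lists whose meaning is not given in the sources used here. All Sham and Control-AMI cardiomyocyte libraries were on list 4, as was 1 of the 4 EMPA–Pre-AMI libraries. Levels are CPM on 1 scale for all 38 libraries, and they are compared between libraries for a gene, never between genes. Fold changes came from edgeR's quasi-likelihood test within each population, with false discovery rates (FDR, Benjamini-Hochberg) over all genes tested and a threshold of 0.05.

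The stretches before the annotated starts of the genes whose levels moved most are printed here, with a different sequence element marked in each. They are from RefSeq on GRCm38.p6, 250 bases each on the + strand, whereas gene positions below are GRCm39. Klf2 is shown at chr8:72318812-72319061 with a MEF2 motif in capitals, Klf9 at chr19:23140976-23141225 with CCAAT boxes (CCAAT or its reverse complement) in capitals, and Klf15 at chr6:90462326-90462575 with E-boxes (CACGTG) in capitals.
Klf2: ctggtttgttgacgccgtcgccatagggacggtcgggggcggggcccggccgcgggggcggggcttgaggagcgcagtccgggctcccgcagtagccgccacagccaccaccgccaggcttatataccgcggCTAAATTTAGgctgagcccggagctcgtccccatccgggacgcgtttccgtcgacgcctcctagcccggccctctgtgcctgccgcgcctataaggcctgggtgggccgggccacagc
Klf9: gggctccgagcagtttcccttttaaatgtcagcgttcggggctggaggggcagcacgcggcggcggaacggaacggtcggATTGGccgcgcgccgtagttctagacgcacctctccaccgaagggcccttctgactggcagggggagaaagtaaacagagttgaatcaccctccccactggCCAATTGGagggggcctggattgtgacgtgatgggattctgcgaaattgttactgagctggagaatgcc
Klf15: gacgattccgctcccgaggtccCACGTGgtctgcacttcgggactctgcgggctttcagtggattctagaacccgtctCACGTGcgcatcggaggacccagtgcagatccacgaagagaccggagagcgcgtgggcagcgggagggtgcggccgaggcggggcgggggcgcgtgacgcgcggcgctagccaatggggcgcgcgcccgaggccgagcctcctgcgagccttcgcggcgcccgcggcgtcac
The MEF2 motif lay 118 bases before the Klf2 start, and the Klf2 stretch was the one with this motif among the 7 members with a promoter in the table. Across 32851 promoters of this length, 2.92% held the motif on either strand. In Klf9, CCAAT boxes began 170, 69 and 66 bases before the start, the last pair overlapping, and 33.9% of promoters held at least 1, as did Klf6, Klf13 and Klf15 (left in lower case in the Klf15 line). E-boxes began 228 and 172 bases before the Klf15 start, against 6.02% of promoters with at least 1; Klf4 and Klf6 held 1 each. A glucocorticoid response element (AGAACA, 3 bases of any kind, TGTTCT) and a cAMP response element (TGACGTCA), held by 0.00913% and 1.55% of promoters, were found in none of the 7. GC boxes (GGGCGG), which 32.7% of promoters held, occurred in every member but Klf9. CACCC elements (CCACCC) were present in Klf2, Klf3 and Klf13, against 28.1% of promoters. All 7 stretches were richer in G and C (59.6 to 78.4%) than the median promoter (52.4%). These matches describe letters in a window and do not show a bound site.

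**Figure D1:**
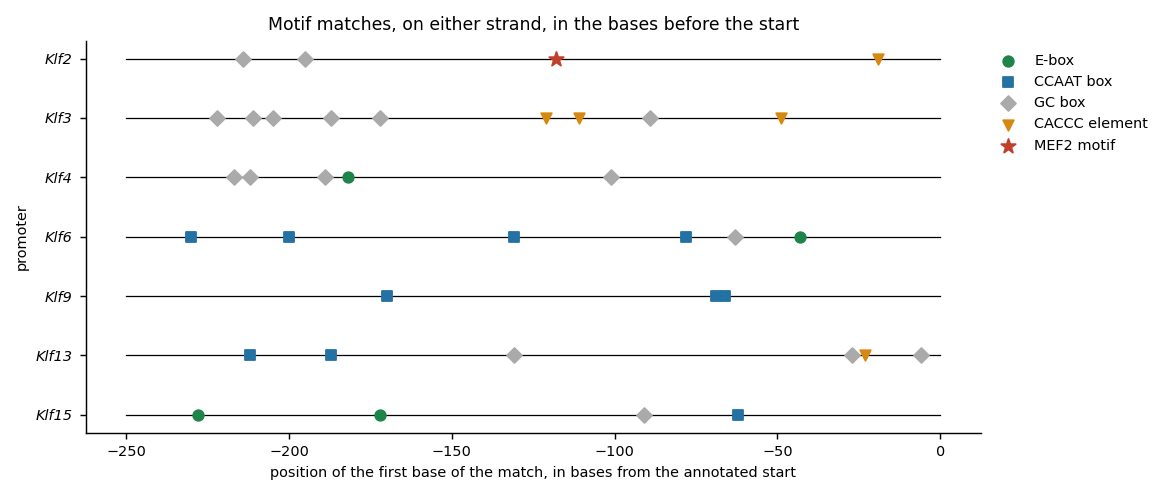
Motif matches on either strand in the 250 bases before the annotated start of 7 members. The horizontal axis is the distance from the start in bases, each line is a promoter and each symbol the first base of a match. The single MEF2 motif is in Klf2, at 118 bases, and the pair of E-boxes is in Klf15.

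In hearts without infarction, the factors were unevenly spread over the populations. Sham ECs held more Klf2 than either other population. Klf2, on chromosome 8 (73072726 to 73075502, + strand, ENSMUSG00000055148), measured 652, 1129, 913 and 1181 CPM in the Sham EC libraries, 240, 344, 247 and 388 CPM in Sham fibroblasts and 166, 160, 141 and 172 CPM in Sham cardiomyocytes. The 3 ranges did not overlap. In the fit of all 38 libraries, ECs exceeded cardiomyocytes 6.07-fold (log2 2.60, SE 0.31, edgeR FDR = 3.92e-09) and fibroblasts 3.18-fold (log2 1.67, SE 0.30, edgeR FDR = 1.37e-05). The endothelial markers in the Sham populations were 8993 to 9848 CPM in ECs, 1500 to 2083 CPM in cardiomyocytes and 39 to 411 CPM in fibroblasts, and their part in the Klf2 levels was not tested. Fewer cells of a type and less RNA per cell cannot be told apart in such libraries. Fits over populations treated all libraries as independent, although the populations share hearts.

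Of the 8 factors, 7 differed between Sham ECs and Sham cardiomyocytes, where 52.9% of 12085 genes did. The injury-responsive Klf6 was 270 ± 52.9 CPM in cardiomyocytes, 714 ± 77.7 CPM in ECs and 256 ± 83.5 CPM in fibroblasts (mean ± SD, n = 4 each), so that ECs were 2.65-fold and 2.79-fold above the other two (edgeR FDR = 8.48e-05 and 5.4e-05), while fibroblasts and cardiomyocytes differed by a log2 value of -0.08 (95% interval -0.65 to 0.50). Klf13, a factor that acts in lymphocytes and in heart development, followed the order ECs, fibroblasts, cardiomyocytes at 268 ± 45.6, 202 ± 48.4 and 122 ± 9.19 CPM. Its upper neighbours did not separate (edgeR FDR = 0.107), whereas both exceeded cardiomyocytes (edgeR FDR = 1.11e-05 and 0.00308). Klf10, the TGF-beta inducible early gene, was low everywhere and lowest in cardiomyocytes, with 4.5 ± 1.82 CPM against 21.4 ± 3.84 CPM in ECs and 11 ± 6.99 CPM in fibroblasts.

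Klf9 was 360 ± 35.3 CPM in Sham cardiomyocytes, below ECs (544 ± 151 CPM, edgeR FDR = 0.0168) and fibroblasts (636 ± 97.1 CPM, edgeR FDR = 0.00146), and the last pair did not separate (edgeR FDR = 0.431). Klf4, the vascular barrier factor, was 739 ± 69.4, 1504 ± 238 and 1042 ± 237 CPM in cardiomyocytes, ECs and fibroblasts, and of its neighbouring levels none differed (edgeR FDR = 0.303 and 0.304), though the extremes did (edgeR FDR = 0.0263). The EC against cardiomyocyte calls for Klf4 and Klf9 were lost without replicate 3 of Sham cardiomyocytes or replicate 2 of Sham ECs. Klf3, a repressor that works through CtBP, did not pass in any pair of populations, at 395 ± 21.9, 601 ± 46.1 and 415 ± 144 CPM. Klf15 was the one factor lower in ECs than in cardiomyocytes, at 1.91 ± 1.09 CPM, or 3 to 8 counts per library, against 8.36 ± 5.01 CPM (log2 -2.11, SE 0.60, edgeR FDR = 0.00293).

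Fibroblasts exceeded cardiomyocytes for 4 factors (Klf2, Klf9, Klf10 and Klf13; 47.3% of genes differed). ECs differed from fibroblasts for 4 as well, with Klf2, Klf6 and Klf10 higher and Klf15 lower (37.7% of genes). Fitting the sample-sheet list as a covariate left 0 of the 8 past the threshold in ECs against fibroblasts (Klf2 log2 1.13, edgeR FDR = 0.067). The Klf15 difference there was also lost without fibroblast replicate 4 (log2 -0.80, edgeR FDR = 0.317) or EC replicate 1, 2 or 3 (edgeR FDR = 0.0745, 0.0506 and 0.0771), and the Klf10 difference without EC replicate 4 (edgeR FDR = 0.0972) or fibroblast replicate 1 or 3 (edgeR FDR = 0.136 and 0.12). In fibroblasts against cardiomyocytes, Klf10 was lost without cardiomyocyte replicate 1 (edgeR FDR = 0.052) or fibroblast replicate 4 (edgeR FDR = 0.134).

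**Figure D2:**
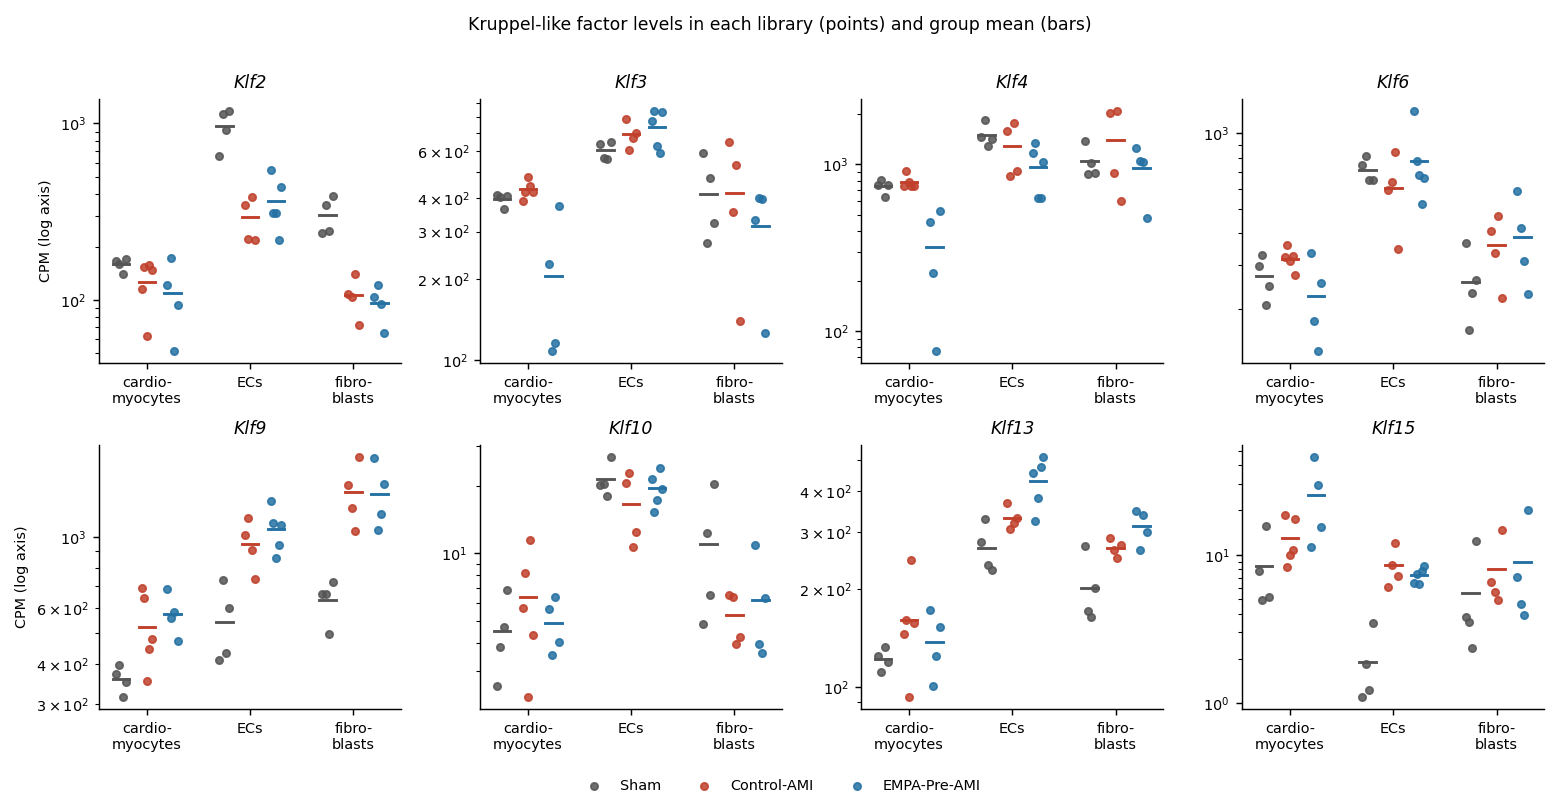
Level of each factor in CPM (log axis) in all 38 libraries, 1 panel per gene, with points for libraries, bars for group means and colours for Sham, Control-AMI and EMPA–Pre-AMI. In ECs and fibroblasts the Sham points of Klf2 lie above all infarcted points, those of Klf9 lie below all of them, and Klf15 does the latter in ECs.

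Control-AMI ECs differed from Sham ECs in 3 of the 8 factors, where 6.56% of 10438 genes passed. Klf2 fell, and Klf9 and Klf15 rose. The other 5 did not pass. The 3 were also the members whose Sham and Control-AMI libraries did not overlap, as was so for 11.2% of genes.

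Endothelial Klf2 was 652, 1129, 913 and 1181 CPM in Sham libraries and 347, 223, 386 and 219 CPM in Control-AMI libraries. Every infarcted library lay below every Sham library. The Control-AMI level was 0.298 of Sham (log2 -1.75, SE 0.28, 95% interval -2.34 to -1.16, edgeR FDR = 0.00223). All 24 alternative analyses called the drop, the highest FDR being 0.0394. On sample-sheet list 2, the list with libraries of all 3 groups, means were 1074 CPM in Sham (n = 3), 304 CPM in Control-AMI (n = 2) and 389 CPM in EMPA–Pre-AMI (n = 3).

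Klf9, on chromosome 19 (23118187 to 23148497, + strand, ENSMUSG00000033863), is a hormone-responsive repressor tied to the clock. It went from 411, 732, 432 and 599 CPM in Sham ECs to 1010, 1141, 909 and 739 CPM in Control-AMI ECs. The highest Sham library was just below the lowest infarcted one. The rise was 1.72-fold (log2 0.78, SE 0.19, edgeR FDR = 0.012), and 22 of 24 alternatives called it. It was lost without Sham replicate 3 (edgeR FDR = 0.0549) and within list 2 alone (edgeR FDR = 0.0701), an analysis added after the data were seen.

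Klf15, on chromosome 6 (90438998 to 90452220, + strand, ENSMUSG00000030087), rested on few counts: 3, 6, 4 and 8 in the Sham EC libraries and 21, 23, 28 and 18 in the Control-AMI libraries. In CPM these were 1.09, 1.83, 1.23 and 3.48 against 6.11, 8.56, 12.0 and 7.21. The groups did not overlap in either unit. The Sham values of 1.09 and 1.23 CPM lay within the 0.873 to 1.3 CPM that a count of 0 allowed in ECs. The size of the Klf15 rise over Sham is therefore uncertain. The rise was 4.39-fold (log2 2.13, SE 0.42, 95% interval 1.26 to 3.01, edgeR FDR = 0.0036), and all 23 alternatives with a value called it.

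Other cell types' markers moved in the same libraries. The summed level of the 9 fibroblast markers was 512 to 1532 CPM in Sham ECs, 2083 to 8775 CPM in Control-AMI ECs and 452 to 886 CPM in EMPA–Pre-AMI ECs, and 7 of 8 tested fibroblast markers were higher in Control-AMI than in Sham. None of the 9 was at 0 in Control-AMI. Endothelial markers were lower for 3 of 9 (Kdr, Fabp4 and Emcn), and haemoglobin and Alas2 summed to 9.85 to 111 CPM in Sham, 151 to 635 CPM in Control-AMI and 195 to 815 CPM in EMPA–Pre-AMI ECs. Leukocyte markers summed to 2.76 to 21.5, 22.1 to 415 and 9.51 to 84.8 CPM in the 3 groups. Leaving out the 2 Control-AMI libraries highest in fibroblast markers, replicates 1 and 4, an analysis chosen after seeing the data, kept Klf2 at a log2 value of -1.68 (edgeR FDR = 0.0394), Klf9 at 0.91 (edgeR FDR = 0.0215) and Klf15 at 2.43 (edgeR FDR = 0.00696). The 2 libraries that remained, at 2083 and 2542 CPM, were still above every Sham library in fibroblast markers. Marker level and infarction therefore cannot be told apart in Control-AMI against Sham. No EMPA–Pre-AMI library was above the Sham range in these markers, and the markers' part in the members' values was not tested.

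The pretreated infarcted ECs gave a second set of libraries to set against Sham, sharing the Sham libraries with the comparison above. There 4 of 8 factors passed (2.71% of genes), and for 3 of them the groups did not overlap (6.65% of genes). Klf2 was 546, 309.8, 310.5, 219 and 436 CPM, 0.376 of Sham (log2 -1.41, SE 0.26, edgeR FDR = 0.00631). Klf9 was 1295, 1106, 856, 943 and 1087 CPM, 1.95-fold above Sham (log2 0.96, SE 0.18, edgeR FDR = 0.00247). For both, all 5 pretreated libraries lay beyond the Sham range. Klf15 measured 6.47, 7.47, 6.37, 7.73 and 8.37 CPM, also all above Sham (3.86-fold, log2 1.95, SE 0.41, edgeR FDR = 0.00786), and its call was lost within list 2 (log2 1.67, edgeR FDR = 0.103), while Klf9 kept its own there (edgeR FDR = 0.0274). Klf13, on chromosome 7 (63536099 to 63588663, - strand, ENSMUSG00000052040), went from 278, 328, 237 and 229 CPM in Sham to 454, 325, 381, 476 and 510 CPM in EMPA–Pre-AMI. One pretreated library fell inside the Sham range. The rise was 1.6-fold (log2 0.68, SE 0.15, edgeR FDR = 0.0122), but it was lost without Sham replicate 3 (edgeR FDR = 0.0717) or 4 (edgeR FDR = 0.0747) and within list 2 (edgeR FDR = 0.109), and a replicate block moved it to an FDR of 0.0503.

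In fibroblasts, Control-AMI differed from Sham in 2 of the 8 factors, where 4.16% of 10691 genes passed, and these were again Klf2 and Klf9. They were also the members without overlap between groups (12.4% of genes). Fibroblast Klf2 was 240, 344, 247 and 388 CPM in Sham and 108, 104, 141 and 72.3 CPM in Control-AMI. The lowest Sham library stood above the highest infarcted one. The infarcted level was 0.345 of Sham (log2 -1.54, SE 0.24, edgeR FDR = 0.00155). Klf9 rose from 663, 662, 496 and 722 CPM to 1451, 1232, 1044 and 1776 CPM, again with no overlap (2.14-fold, log2 1.09, SE 0.21, edgeR FDR = 0.00597). All 22 alternatives called both.

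Endothelial markers in the fibroblast libraries summed to 39 to 411 CPM in Sham, 129 to 515 CPM in Control-AMI and 90.8 to 532 CPM in EMPA–Pre-AMI, and 0 of 9 passed in Control-AMI against Sham. Of these 9, up to 5 were at 0 in a Sham library. Mural cell markers summed to 701 to 1966 CPM in Sham, 625 to 4108 CPM in Control-AMI, where replicate 4 was highest, and 1089 to 2211 CPM in EMPA–Pre-AMI, with none of the 8 at 0. Of these 8, Tagln, a smooth muscle actin-binding protein gene, passed in Control-AMI (log2 2.45, edgeR FDR = 0.000564) and in EMPA–Pre-AMI (log2 2.91, edgeR FDR = 0.00014) against Sham. The part of either marker list in the Klf2 and Klf9 values was not tested. On list 4, Klf2 was 240 CPM in the 1 Sham library and 118 CPM over 3 Control-AMI libraries.

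The remaining fibroblast factors did not pass against Sham. Klf10, on chromosome 15 (38291703 to 38300959, - strand, ENSMUSG00000037465), was 4.85, 12.4, 6.5 and 20.3 CPM in Sham and 6.53, 6.42, 3.97 and 4.26 CPM in Control-AMI (log2 -1.07, SE 0.45, edgeR FDR = 0.204), with overlapping groups. Klf4, Klf6 and Klf13 had log2 values of 0.42, 0.47 and 0.39 (edgeR FDR = 0.6, 0.419 and 0.225). Klf4, on chromosome 4 (55527139 to 55532528, - strand, ENSMUSG00000003032), spread from 601 to 2097 CPM within Control-AMI alone.

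Pretreated fibroblasts, set against the same Sham libraries, gave 2 calls (5.11% of genes). Klf2 was 104, 121, 95.3 and 65.2 CPM, 0.313 of Sham (log2 -1.67, SE 0.24, edgeR FDR = 0.000698), and Klf9 was 1756, 1049, 1181 and 1462 CPM, 2.12-fold above Sham (log2 1.09, SE 0.21, edgeR FDR = 0.00608). Both left no overlap, which held for 11.9% of genes. Klf13 reached 348, 263, 338 and 299 CPM from 271, 172, 165 and 201 CPM (1.53-fold, log2 0.62, SE 0.17) and lay at the threshold, with an FDR of 0.0502 by edgeR and 0.0113 by DESeq2. Without Sham replicate 1 its edgeR FDR was 0.0106.

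In cardiomyocytes, 0 of the 7 factors tested passed after infarction by edgeR or DESeq2, against 0.0655% of 9167 genes by edgeR, and 1 had an unadjusted p under 0.05 (2.72% of genes). Klf10, at 3 to 16 counts per library, did not pass the filter on low counts there. Klf2 measured 166, 160, 141 and 172 CPM in Sham and 115, 153, 62.5, 158 and 148 CPM in Control-AMI. The groups overlapped, and the log2 value was -0.30 (95% interval -0.95 to 0.34). Klf9 had the smallest p, 0.0148 unadjusted in edgeR's model, with 373, 399, 315 and 353 CPM in Sham and 693, 644, 355, 445 and 479 CPM in Control-AMI. Of these infarcted libraries, 4 exceeded the Sham range, and the log2 value was 0.55 (95% interval 0.12 to 0.99).

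Whether Klf2 responded differently between populations was tested as an interaction over all libraries, taken as independent although the populations share hearts. For Control-AMI against Sham, 0 of 8 factors passed in ECs against cardiomyocytes (1.51% of genes; 1 factor with an unadjusted p under 0.05, as had 9.09% of genes; 1 by DESeq2), in fibroblasts against cardiomyocytes (0.331% of genes; 2 under 0.05, as were 8.47% of genes; 0 by DESeq2) or in ECs against fibroblasts (3.22% of genes; 1 under 0.05, as were 12.8% of genes; 0 by DESeq2). The Klf2 change in ECs was lower than in cardiomyocytes by a log2 value of -1.39 (SE 0.41, 95% interval -2.22 to -0.57), with an FDR of 0.0773 by edgeR and 0.0323 by DESeq2. It passed in edgeR without cardiomyocyte Control-AMI replicate 3 (FDR = 0.0295), cardiomyocyte EMPA–Pre-AMI replicate 3 (FDR = 0.0388) or EC Control-AMI replicate 3 (FDR = 0.0454). Between ECs and fibroblasts the Klf2 changes differed by -0.20 (95% interval -1.03 to 0.63). For Klf15, the EC change exceeded the fibroblast change by 1.66 (SE 0.74, edgeR FDR = 0.303), so its rise was not shown to be particular to ECs.

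Pretreatment was then compared with vehicle in infarcted hearts. In ECs, 0 of 8 factors passed by edgeR or DESeq2 (2.63% of genes passed by edgeR; 1 factor had an unadjusted p under 0.05, as had 12.2% of genes). Klf2 was higher in EMPA–Pre-AMI by a log2 value of 0.34 (95% interval -0.22 to 0.89, edgeR FDR = 0.698), and the libraries, 219 to 546 CPM against 219 to 386 CPM, overlapped. Klf13 had the smallest p (log2 0.40, SE 0.15, edgeR FDR = 0.222). In this comparison all 8 tested fibroblast markers were lower with empagliflozin. Among endothelial markers, Fabp4 (log2 0.81, edgeR FDR = 0.0148) and Cdh5 (log2 0.64, edgeR FDR = 0.0476) were higher, and the others did not pass. The cardiomyocyte marker Ryr2 was lower (log2 -1.62, edgeR FDR = 0.0418). Endothelial markers summed to 4706 to 6396 CPM in Control-AMI and 6462 to 9267 CPM in EMPA–Pre-AMI ECs. The part of these shifts in the members' values was not tested. In fibroblasts, 0 of 8 passed by edgeR or DESeq2, 0 had an unadjusted p under 0.05, and 0 of 10691 genes passed by edgeR (170 genes, 1.59%, had an unadjusted p under 0.05). The intervals there were -0.63 to 0.36 for Klf2 and -0.44 to 0.43 for Klf9.

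The members' lowest FDR values for empagliflozin were in cardiomyocytes. None of the 7 factors passed by edgeR (0.0218% of genes), 3 had an unadjusted p under 0.05, as had 25% of genes, and DESeq2 called 2. Klf3, on chromosome 5 (64959875 to 64990261, + strand, ENSMUSG00000029178), was 392, 421, 481, 444 and 423 CPM in Control-AMI and 227, 108, 115 and 372 CPM in EMPA–Pre-AMI. All 4 pretreated libraries lay below the vehicle range (log2 -1.04, SE 0.26, edgeR FDR = 0.0571). Klf4 was 743, 918, 787, 744 and 741 CPM against 448, 224, 75.7 and 528 CPM, again without overlap (log2 -1.27, SE 0.36, edgeR FDR = 0.0617). At an FDR under 0.1, these 2 stood beside 10.7% of genes, and 5.92% of genes had groups without overlap. DESeq2 gave FDR values of 0.00975 for Klf3 and 0.0136 for Klf4.

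The 3 pretreated cardiomyocyte libraries with the lowest Klf3 and Klf4 were those on other sample-sheet lists, and replicate 4, on list 4 with all vehicle libraries, was the highest at 372 and 528 CPM. With the list as a covariate or within list 4, neither gene passed (log2 values as small as -0.23 for Klf3 and -0.59 for Klf4), so list and pretreatment cannot be told apart in the other 3. Without replicate 4 both passed in edgeR (FDR = 0.00141 and 0.0104), as they did without replicate 1 (FDR = 0.0493 and 0.0485). Fibroblast markers moved with them. Their summed level was 2473 to 6458 CPM in Control-AMI and 787 to 4764 CPM in EMPA–Pre-AMI, and their median log2(CPM + 1) was 5.49, 6.47, 4.59 and 7.07 in the 4 pretreated libraries, in replicate order, against 6.41 to 8.21 with vehicle. The 8 tested fibroblast markers were all lower in value, none passing, and their part in the Klf3 and Klf4 values was not tested.

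**Figure D3:**
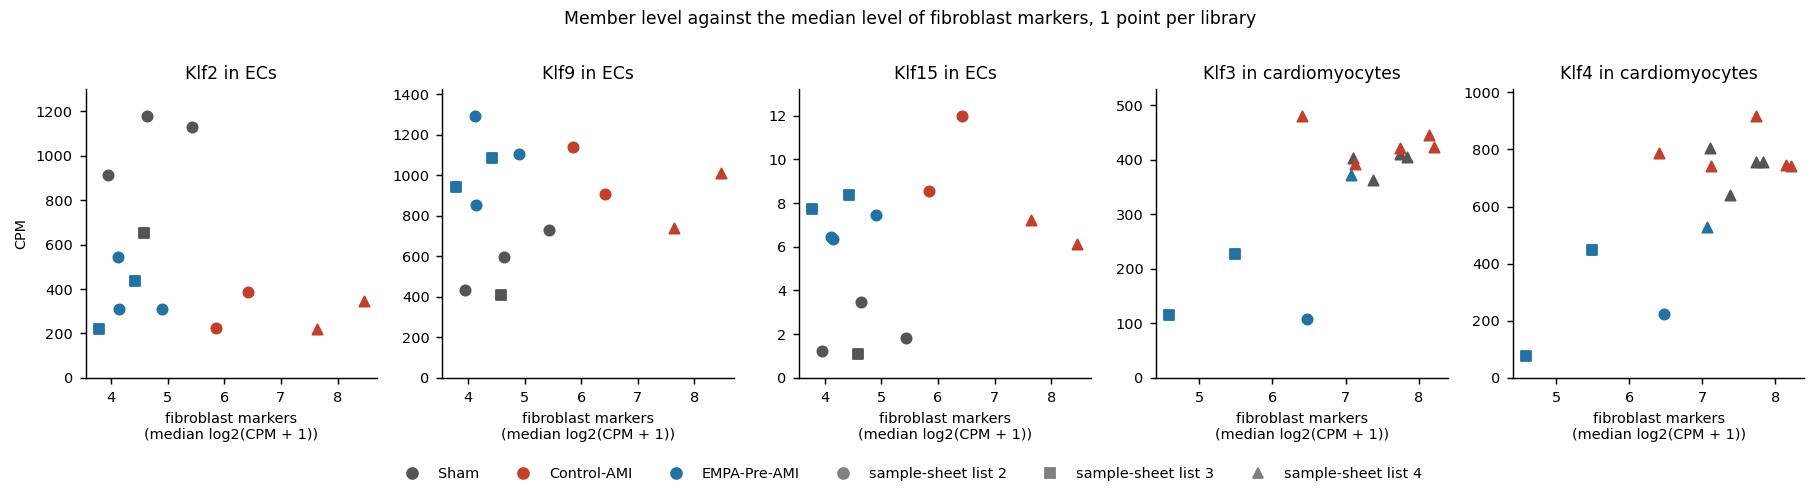
Level of selected factors in CPM (vertical axis) against the median log2(CPM + 1) of 9 fibroblast markers (horizontal axis), 1 point per library, with colours for groups and shapes for sample-sheet lists. In ECs the Control-AMI libraries lie to the right and low in Klf2, while the EMPA–Pre-AMI libraries are low in Klf2 at marker levels like those of Sham. In cardiomyocytes, 2 of the 3 pretreated libraries from other lists lie left of all vehicle and Sham libraries, at 4.59 and 5.49, and the other, at 6.47, lies beside the lowest vehicle library at 6.41.

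Klf15 in cardiomyocytes, where it restrains growth and sets amino acid and lipid use, was 7.71, 4.92, 15.6 and 5.17 CPM in Sham, 18.5, 8.21, 9.91, 10.8 and 17.3 CPM in Control-AMI and 11.3, 45.7, 29.5 and 15.3 CPM in EMPA–Pre-AMI. The highest pair of values belonged to pretreated libraries, but all groups overlapped. Pretreated replicate 2, at 45.7 CPM, was also the cardiomyocyte library highest in erythrocyte (5142 CPM) and leukocyte markers (392 CPM). The neutrophil gene S100a8 stood above Sham in both infarcted groups, in Control-AMI (log2 3.27, edgeR FDR = 0.0301) and in EMPA–Pre-AMI (log2 4.08, edgeR FDR = 0.00154). The part of these in the Klf15 values was not tested. Against Control-AMI the log2 value was 1.03 (SE 0.42, edgeR FDR = 0.14). Against Sham 0 of 7 factors passed in edgeR (0.338% of genes), 4 had an unadjusted p under 0.05 (18.2% of genes), 2 had no overlap (7.85% of genes) and DESeq2 called 2, Klf9 (FDR = 0.039) and Klf15 (FDR = 0.0273). The edgeR values there were 0.74 for Klf9 (SE 0.22, FDR = 0.13) and 1.72 for Klf15 (SE 0.47, FDR = 0.105). The response to empagliflozin was not shown to differ between ECs and cardiomyocytes (0 of 8; 0.993% of genes; 3 with an unadjusted p under 0.05, as had 16.5% of genes; 0 by DESeq2) or between ECs and fibroblasts (0 of 8; 2.04% of genes; 0 with an unadjusted p under 0.05, as against 8.09% of genes; 0 by DESeq2).

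The other genes of each pathway were then counted, in lists chosen with earlier results of these data known and without a test of any list. The share of all genes past the threshold after infarction was 6.56% in ECs, 4.16% in fibroblasts and 0.0655% in cardiomyocytes. In pretreated hearts against Sham it was 2.71%, 5.11% and 0.338%, and between pretreatment and vehicle 2.63%, 0% and 0.0218%, in the same order. Among 12 glucocorticoid-responsive genes, 5 rose and 0 fell in ECs after infarction, with a list median of 1.38 on the log2 scale against -0.02 for all genes. Zbtb16, a zinc finger repressor, rose by 4.14 (edgeR FDR = 0.00428) and Fkbp5, a cochaperone of the glucocorticoid receptor, by 3.17 (edgeR FDR = 0.000275). Cebpd, Ddit4 and Nfkbia made up the rest. In fibroblasts 5 rose and 0 fell as well (median 1.2 against -0.03), among them Zbtb16 at 2.70, Errfi1 at 1.94, Ddit4 at 1.82 and Sgk1 at 1.58. In cardiomyocytes Ddit4, an mTOR inhibitor, passed alone, at 1.46 (edgeR FDR = 0.00158; median 0.85 against 0.01). Against Sham, pretreated ECs, fibroblasts and cardiomyocytes had 6, 6 and 3 of the 12 higher and none lower. Between pretreatment and vehicle, 1 of 12 passed in cardiomyocytes (Ddit4, 1.2, edgeR FDR = 0.0217) and 0 in ECs and fibroblasts.

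**Figure D4:**
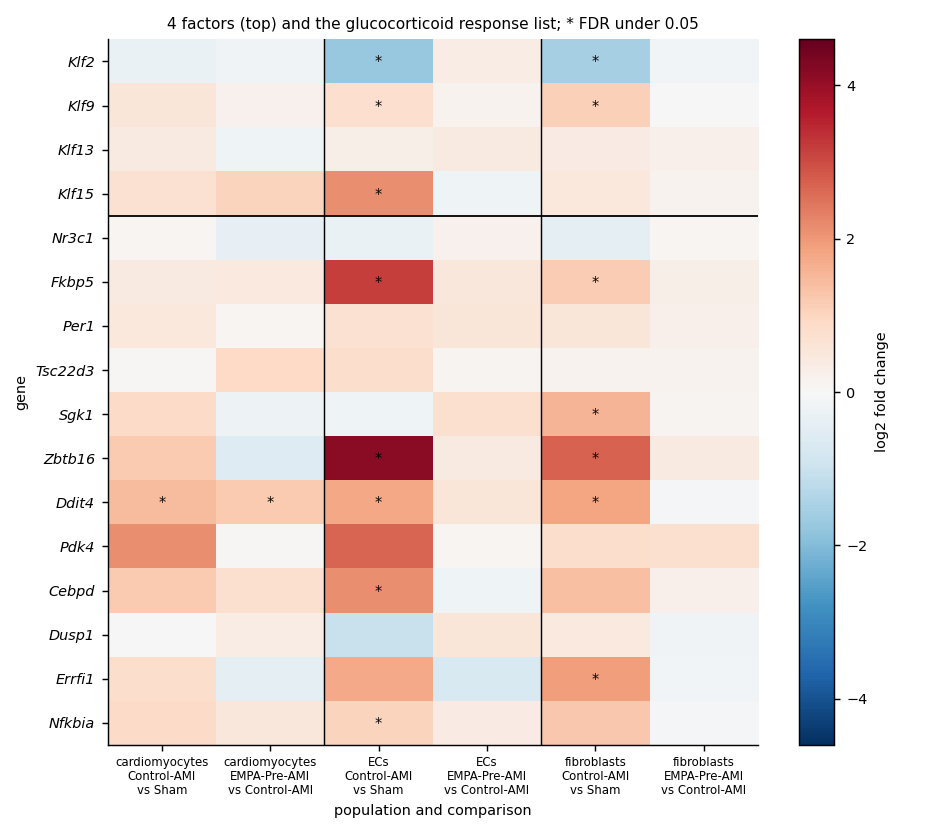
Log2 fold changes (colour) of 4 factors, in the upper lines, and the 12 glucocorticoid-responsive genes in each population, for Control-AMI against Sham and for the infarcted groups with and without empagliflozin, with an asterisk for an edgeR FDR under the threshold. Zbtb16 and Fkbp5 in infarcted ECs, at 4.14 and 3.17, are among the deepest colours, and the empagliflozin columns hold 1 asterisk, for Ddit4 in cardiomyocytes.

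Clock genes, with which Klf9 and Klf15 cycle in many tissues, gave fewer calls. In ECs 1 of 15 tested rose after infarction, Bhlhe40 (log2 1.32, edgeR FDR = 0.000382), and 3 did in pretreated ECs against Sham, Per2 (1.70), Bhlhe40 (1.57) and Per1 (1.26). In fibroblasts Nfil3 (1.12), Nr1d2 (1.1) and Cry2 (0.87) rose among 16 tested, and 4 of 16 rose in pretreated fibroblasts. None passed in cardiomyocytes, and none between pretreatment and vehicle.

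Upstream of Klf2 and Klf4, 0 of 11 tested genes of the MEK5-ERK5-MEF2 and CCM pathways passed in any comparison in ECs or cardiomyocytes. In fibroblasts Mapk7, which encodes ERK5, fell by 1.22 on the log2 scale after infarction (edgeR FDR = 0.0159) and by 1.67 in pretreated fibroblasts against Sham (edgeR FDR = 0.00237), and the other 10 did not pass. Among 11 tested genes known to be induced by Klf2 or Klf4 in endothelium, infarcted ECs had 1 higher, the prostacyclin synthase Ptgis (1.51, edgeR FDR = 0.0113), and 2 lower, the scaffold protein gene Nherf2 (-0.63, edgeR FDR = 0.0187) and Palmd (-0.71, edgeR FDR = 0.0477). Nos3, the endothelial nitric oxide synthase, and the anticoagulant receptor Thbd did not pass, with log2 values of -0.34 (edgeR FDR = 0.304) and -0.71 (edgeR FDR = 0.0759). Of 7 tested genes they repress, infarcted ECs had 1 lower, the chemokine Cxcl12 (-0.79), and infarcted fibroblasts had 1 higher, the adhesion receptor Sele (4.08, edgeR FDR = 0.00415). Mean Sele in fibroblasts was 0.769 CPM in Sham, 14.1 CPM in Control-AMI and 15.2 CPM in EMPA–Pre-AMI. The Sham mean lay within the 0.692 to 1.08 CPM that a count of 0 allowed there, so the size of the Sele rise is uncertain. Endothelial markers summed to 39 to 532 CPM in the fibroblast libraries, and their part in the Sele values was not tested. Empagliflozin against vehicle in ECs gave Ptgis lower (-1.22, edgeR FDR = 0.0417) and Cxcl12 higher (0.74, edgeR FDR = 0.042). Mean Ptgis in ECs was 18 CPM in Sham, 52.1 CPM in Control-AMI and 21.9 CPM in EMPA–Pre-AMI. Fibroblast markers in these EC libraries were also highest in Control-AMI, and their part in the Ptgis values was not tested. Mean Cxcl12 in ECs was 838 CPM in Sham, 494 CPM in Control-AMI and 810 CPM in EMPA–Pre-AMI. Summed endothelial markers were likewise lowest in Control-AMI ECs, and their part in the Cxcl12 values was not tested. Pretreated ECs against Sham had the sphingosine receptor S1pr1 higher (1.1, edgeR FDR = 0.0139). In fibroblasts, of the induced genes Cyp1b1 rose by 1.18 after infarction and 1.29 with pretreatment against Sham, where Icam1 (1.70) joined Sele (4.19) among the repressed.

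Genes under Klf15 control in muscle, such as the potassium channel subunit Kcnip2, the glucose transporter Slc2a4 and the branched-chain aminotransferase Bcat2, gave 0 calls in all 9 comparisons (11, 5 and 8 tested in cardiomyocytes, ECs and fibroblasts). Other Krüppel-like and Sp factors (5, 8 and 8 tested) and 14 cofactors and ubiquitin ligases also gave 0 in all 9. Of the TGF-beta list that goes with Klf10, Smad3 was higher and Smad7 lower in infarcted ECs (1.30 and -0.72) and Smad3 lower with pretreatment than with vehicle (-1.63). Mean Smad3 in ECs was 7.36 CPM in Sham, 18.6 CPM in Control-AMI and 5.93 CPM in EMPA–Pre-AMI. Fibroblast markers in the EC libraries were likewise highest in Control-AMI, and their part in the Smad3 values was not tested. Ccn2 rose by 1.97 in pretreated cardiomyocytes against Sham. Immediate early and dissociation-responsive genes, which cell isolation can induce, passed for 2 of 19 in infarcted ECs (Socs3, 2.22, and Fosl2, 1.5), 3 of 20 in infarcted fibroblasts (Socs3, Fosl2 and Ier5) and 0 of 18 in cardiomyocytes. Their part in the members' values was not tested.

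Across the 38 libraries, with each population's mean taken away, the likeness of each factor to 12063 genes was described by Pearson's r of log2 CPM, over libraries that share groups, lists and depth. Klf9 was most like Nfkbia (0.874), Cdkn1a (0.859) and Ddit4 (0.849), and Klf15 was most like Cebpd (0.752), Gclc (0.744) and Slc39a14 (0.719). For Klf2 the first were Ints6l (0.768), Nedd9 (0.765) and Lratd2 (0.762). Klf3 lay nearest to Smarca2 (0.895), Myh10 (0.881) and Golgb1 (0.876), Klf4 to Cd55 (0.847), Golim4 (0.833) and Cped1 (0.821), and Klf6 to Macf1 (0.833), Dock1 (0.788) and Arhgef12 (0.786). Klf13 had Csrnp1 (0.729), Chic2 (0.714) and Cdkn1a (0.705), and Klf10 had Cttn (0.696), Prr14 (0.674) and Irf2bpl (0.666). Among the members, Klf3 and Klf4 varied most alike (0.805), Klf9 went with Klf13 and Klf15 (0.633 each), and Klf2 ran opposite to Klf9 (-0.613) and Klf15 (-0.527).

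Overlapping genes bear on 2 members. Eps15l1 overlaps Klf2 on the other strand and had 3 to 68 counts per library, and E030018B13Rik overlaps Klf13 and had 0 or 1. The strand setting of the quantification is not given in the sources used here, so reads of such pairs may not be told apart. Klf6, on chromosome 13 (5911481 to 5920393, + strand, ENSMUSG00000000078), did not pass in any comparison of groups within a population. Its pretreated EC libraries were 1227, 775, 682, 523 and 666 CPM, and the highest of them stood beyond all Sham (651 to 810 CPM) and Control-AMI (346 to 842 CPM) libraries.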

How the data were processed

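RNA was measured in 38 libraries of 3 cell populations. The deposited matrix holds expected counts per gene, estimated by the authors with Salmon after FastQC and trimming with cutadapt 2.8; 4.55% of the values are not whole. Counts were rounded, gene symbols came from the annotation of GRCm39 (275 of 35682 identifiers had none), and genes with few counts were removed with filterByExpr (minimum count 10). Tests used edgeR 4.0.16 in R 4.3.3 with TMM factors, robust quasi-likelihood fits within each population and Benjamini-Hochberg adjustment. Comparisons between populations and of effects between populations used 1 fit of all libraries over 12085 genes. CPM use the TMM factors of that fit. DESeq2 1.42.0, other filters and size factors, a sample-sheet term, a replicate block and leaving out each library were alternatives. For the fit of all libraries, leaving out mitochondrially encoded genes was another. The fits were tested on simulated data. Named were the 8 members, up to 4 genes of each list with the largest fold changes past the threshold, and the 3 genes most like each member. The members and lists were chosen with earlier results of these data known. Each library pooled 2 hearts, and the 3 populations were separated from the same digests, so that libraries share hearts in a way not given in the sources used here and not modelled. The p-values measure the spread between libraries. The result of 1 gene of the TGF-beta list is not reported here.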

Additional observations from a re-analysis of the deposited data

Results flagged for a closer look

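In 4 of 72 groups of 4 or 5 libraries, 1 library stood far from the rest by Dixon's criterion, which chance gives in about 1 in 20 groups. Klf3 was 363 CPM in replicate 3 of Sham cardiomyocytes, below 403 to 410.1 CPM in the others. Klf4 was 918 CPM in replicate 2 of Control-AMI cardiomyocytes, above 741 to 787 CPM. Klf15 was 12.5 CPM in replicate 4 of Sham fibroblasts, against 2.36 to 3.83 CPM, and 14.8 CPM in replicate 4 of Control-AMI fibroblasts, against 4.96 to 6.53 CPM. Replicate 4 of EMPA–Pre-AMI fibroblasts was not flagged but was also the highest, at 20 CPM against 3.96 to 7.05 CPM. Replicate 4 was on sample-sheet list 1 in each of these fibroblast groups. Sham fibroblast replicates 2 and 3 were on list 1 as well, and their Klf15 was low, at 3.53 and 2.36 CPM.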

How the results depend on the processing

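No result changed direction while called, and 558 of 574 planned recomputations of the member counts stayed within 1.5 times the reported count. Comparisons with a reported count of 0 were included, where staying at 0 counted as unchanged, so this total says little about the called members. In cardiomyocytes, EMPA–Pre-AMI against Control-AMI gave 2 members with DESeq2, 1 with no filter on low counts and 2 with a filter of at least 10 counts, in place of 0, and 0 to 2 when 1 library was left out. EMPA–Pre-AMI against Sham there gave 2 with DESeq2, 1 with no filter and 0 to 4 with a library left out, in place of 0. In ECs, EMPA–Pre-AMI against Sham gave 2 in place of 4 within sample-sheet list 2, an alternative chosen after seeing the data, and 3 to 4 with a library left out. The different effect of infarction in ECs and cardiomyocytes gave 1 with DESeq2 in place of 0, and 0 to 1 with a library left out. The different effect of empagliflozin there gave 1 with a sample-sheet term in place of 0, and 0 to 1 with a library left out. Sham ECs against Sham fibroblasts gave 2 with the filter of at least 10 counts and 0 with the sample-sheet term in place of 4, and 3 to 4 with a library left out. The cause was not tested. Leaving out a library gave 2 to 3 for infarction in ECs, 2 to 3 for EMPA–Pre-AMI against Sham in fibroblasts, 5 to 7 for ECs against cardiomyocytes and 3 to 4 for fibroblasts against cardiomyocytes.

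Libraries with the same replicate number are not stated to be paired. Some also shared a sample-sheet list: replicate 4 of Sham, Control-AMI and EMPA–Pre-AMI fibroblasts was on list 1. Deviations of same-numbered libraries correlated above 0.1 in 0 of 12 pairs in cardiomyocytes, 3 of 12 in ECs and 6 of 12 in fibroblasts. Among replicate 4 fibroblast libraries the correlations were 0.258, 0.268 and 0.455. With the replicate block, EMPA–Pre-AMI against Sham gave 3 members in place of 4 in ECs and 3 in place of 2 in fibroblasts (Klf13, edgeR FDR = 0.0228), and no other count changed. Depth limits Klf10 in cardiomyocytes and Klf15 in all populations. Single libraries held as few as 3 counts of Klf10 in cardiomyocytes. For Klf15 the lowest were 3 counts in ECs, 8 in fibroblasts and 9 in cardiomyocytes.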
